A study of Mus musculus with 2 samples.

Results

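Among 32285 genes counted in nuclei of the mouse tibialis anterior, 38 genes of DNA replication and mitosis were taken by symbol, and all 38 were found. They formed an S group of 16 genes, most of which act while DNA is copied or are usually expressed then, and a mitotic group of 22 genes. Diaph3 was counted in the S group by its place in the list, although it followed the mitotic genes, as given below. Most of the mitotic group act in chromosome condensation, on the spindle, at kinetochores and in cytokinesis. The list was given by name, without a threshold on these values.

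Nuclei came from 2 libraries of the Chromium single cell 3′ chemistry, in which a read carries 1 tag for the droplet and another for the RNA molecule, so that molecules are counted as unique molecular identifiers (UMIs). Both were made from male mice with chronic kidney disease, 16 to 20 weeks of age, taken 5 days after the femoral artery had been tied off to reduce blood flow to the leg. One library was labelled AHRfl/fl and the other AHRmKO, and the labels give the same cross for both: AHRtm3.1Bra/J, which carries a floxed Ahr gene, with mice of the line Tg(ACTA1-cre/Esr1*)2Kesr/J. That transgene drives an inducible Cre recombinase from a skeletal actin promoter, which is active in muscle fibres and not in macrophages or endothelial cells. The number of mice per library, whether the AHRfl/fl mice carried the transgene, and any treatment to induce Cre are not given in the sources used here. With 1 library a group there is no replicate check of any difference and no p-value, and all intervals are 95% intervals of counting error only.

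A dividing cell first copies its DNA in S phase, for which the MCM helicase opens the double strand, DNA polymerases copy it and ribonucleotide reductase supplies the building blocks. In G2 and mitosis, cyclin B with its kinase CDK1, condensins, topoisomerase II, kinesin motors and kinetochore proteins then compact, align and separate the chromosomes. S genes are switched on mainly through E2F factors, which bind GC-rich sites in promoters, and mitotic genes through the MuvB complexes, which bind a short element called the cell cycle genes homology region (CHR) and often work with NF-Y at CCAAT boxes. In injured muscle, satellite cells, the muscle stem cells, divide before they fuse into fibres, macrophages and fibroblasts also divide, and the nuclei inside fibres do not.

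Promoters show how the groups differ in sequence. The RefSeq promoter table for GRCm38.p6, which spans 250 bases before to 50 bases after the transcription start, held 32 of the 38 genes; Cdca2, Tpx2, Smc4, Mcm4, Pole and Atad2 had no entry. The CHR letters searched were TTTGAA or TTCGAA, the E2F letters TTCGCGC or TTGGCGC, and the third motif CCAAT, each on both strands. A CHR match stood in 17 of 19 mitotic promoters (89.5%), in 1 of 13 S promoters (7.69%, Mcm2) and in 19.4% of all 27025 promoters in the table. An E2F match stood in 5 of 19 mitotic promoters (26.3%), in 8 of 13 S promoters (61.5%) and in 3.98% of all. CCAAT was common in both groups, at 73.7% of mitotic and 84.6% of S promoters against 37.9% of all. CHR and CCAAT stood together in 63.2% of mitotic promoters, 7.69% of S promoters and 7.7% of all. Ccnb1 and Cenpe were the mitotic genes in the table without a CHR match, and Ccnb1 had an E2F match. An E2F match shared letters with a CCAAT match in 2 genes (Ccnb1 and Ect2) and with another E2F match in Mcm3, Mcm5 and Mcm6, and no CHR match shared letters with another match. These are letter matches in one window and were not tested as binding sites.

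The promoters below belong to the 2 mitotic genes with a CHR match and the 2 S genes with an E2F match that had the most UMIs, and they show the difference in letters. Each runs 5′ to 3′ on the gene's strand from 150 bases before to 25 bases after the start. Capitals mark CHR matches in the first pair and E2F matches in the second, including matches that read on the other strand (TTCAAA and GCGCCAA). They lie at chr11:99024165-99024339 (Top2a), chr7:135716355-135716529 (Mki67), chrX:93632131-93632305 (Pola1) and chr6:47595006-47595180 (Ezh2), all on the minus strand.
Top2a: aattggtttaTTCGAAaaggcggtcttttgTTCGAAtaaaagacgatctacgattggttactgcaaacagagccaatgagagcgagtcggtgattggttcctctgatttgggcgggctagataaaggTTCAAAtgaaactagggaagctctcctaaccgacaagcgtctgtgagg
Mki67: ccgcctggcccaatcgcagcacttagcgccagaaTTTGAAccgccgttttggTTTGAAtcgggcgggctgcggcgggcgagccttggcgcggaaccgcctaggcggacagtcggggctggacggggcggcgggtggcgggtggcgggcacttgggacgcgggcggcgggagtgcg
Pola1: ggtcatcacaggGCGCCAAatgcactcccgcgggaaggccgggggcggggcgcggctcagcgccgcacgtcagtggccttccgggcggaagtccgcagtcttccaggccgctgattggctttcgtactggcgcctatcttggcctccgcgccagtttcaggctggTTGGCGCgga
Ezh2: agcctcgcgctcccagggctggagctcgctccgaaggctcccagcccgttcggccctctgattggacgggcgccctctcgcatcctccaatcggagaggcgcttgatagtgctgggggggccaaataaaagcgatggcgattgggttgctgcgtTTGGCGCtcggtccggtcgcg
Top2a, which relieves the tangles of copied DNA, had CHR matches at -140, -120 and -23 in this stretch. Mki67, whose protein coats mitotic chromosomes, had them at -116 and -98, and also an E2F match at -67 (left in lower case). Pola1, the catalytic subunit of DNA polymerase alpha, had E2F matches at -138 and 16, and Ezh2, the methyltransferase of Polycomb complex PRC2, had 1 at 5.

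Barcodes with at least 2000 UMIs were taken as nuclei: 19056 from the library labelled AHRfl/fl and 9015 from the library labelled AHRmKO. Over all barcodes the libraries held 151788328 and 113737134 UMIs, of which these nuclei held 59.3% and 38.5%. The nuclei of the libraries shared 43 barcode sequences (0.226% and 0.477% of the nuclei). Of the 24 clusters from joint clustering, 18 drew over 90% of their nuclei from a single library. Ahr did not show the deletion: in myonucleus-like nuclei it was at 28.5 (26.3 to 30.8) and 27.7 (24.8 to 30.8) UMIs in every 1000000. The counts are per gene and read the 3′ end, so loss of the early exon that is flanked by recombination sites in this allele would not be seen, and the value does not test the label. Directions below are therefore between libraries as labelled.

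Both groups were highest in satellite-like nuclei, next in macrophage-like nuclei, and, of the 6 classes compared, lowest in myonucleus-like nuclei, the pooled nuclei of mature and immature fibres, in both libraries. A level is given in CPM, the UMIs of a gene in every 1000000 UMIs of a class. In the library labelled AHRfl/fl the 22 mitotic genes summed to 2965 CPM (2938.5 to 2991.5) in satellite-like, 1305.0 CPM (1293.1 to 1317.0) in macrophage-like, 1181 CPM in endothelial-like, 957 CPM in fibroblast-like and 341 CPM (334 to 349) in myonucleus-like nuclei. The same sums in the library labelled AHRmKO were 4367 CPM (4331.2 to 4402.5), 2971 CPM (2941.3 to 3001.7), 2310 CPM, 1516 CPM and 476 CPM (464 to 489). The order of these classes was thus the same, with every sum higher in the library labelled AHRmKO. Adipocyte-like nuclei were at 1061.5 CPM (999.0 to 1127.5) and 1513 CPM (1413.0 to 1618.8). They were above fibroblast-like nuclei in the first library and close to them in the second. Without adipocyte-like nuclei, the 16 S genes followed the same order in the first library, at 1527 CPM, 758 CPM, 670.0 CPM, 655 CPM and 286 CPM. In the second they stood at 1887, 1519, 1132, 962 and 309 CPM. The adipocyte-like S sums were 683 CPM (633 to 737) and 907 CPM (830 to 989). They lay above the endothelial-like and fibroblast-like sums in the first library, within counting error, and below them in the second. Endothelial-like and fibroblast-like sums of the S group did not differ beyond counting error in the library labelled AHRfl/fl, with intervals of 633 to 708 and 639 to 671 CPM.

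In single nuclei, too, the shares were highest in satellite-like and lowest in myonucleus-like nuclei, while endothelial-like and macrophage-like nuclei were close. A nucleus was counted as positive when it held at least 3 UMIs of a group, and each nucleus was also thinned to 2000 UMIs, which left none out, so that depth could not set the share. After thinning, 38.6% of satellite-like nuclei (37.1 to 40.1; 3874 nuclei) of the library labelled AHRfl/fl were positive for the mitotic group, against 48.7% (46.8 to 50.6; 2714 nuclei) for the library labelled AHRmKO. The difference was 10.1 points (7.69 to 12.5). For macrophage-like nuclei the shares were 18.5% (17.7 to 19.4; 8265 nuclei) and 30.9% (29.1 to 32.7; 2636 nuclei), a difference of 12.4 points (10.4 to 14.4). Myonucleus-like nuclei should not divide, and their makeup differed between the libraries, as given below. They were at 3.91% (3.35 to 4.54; 4219 nuclei) and 6.03% (5.12 to 7.06; 2420 nuclei), a difference of 2.12 points (1.04 to 3.28). Shares of the S group were close to these, at 36.3% and 44.9% of satellite-like, 15.8% and 28.7% of macrophage-like and 3.32% and 4.46% of myonucleus-like nuclei. Unthinned, the mitotic shares were 50.4% and 61.6%, 31.5% and 42.8%, and 18.7% and 16.0% for the same 3 classes, at median depths of 3754 and 3780, 3157 and 3239, and 4863 and 3935 UMIs. The other classes also lay above the myonucleus-like share after thinning: endothelial-like nuclei at 19.8% and 26.4% for the mitotic group, fibroblast-like nuclei at 14.3% and 18.3%, and adipocyte-like nuclei at 14.9% and 25.2% (141 and 107 nuclei).

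**Figure D1:**
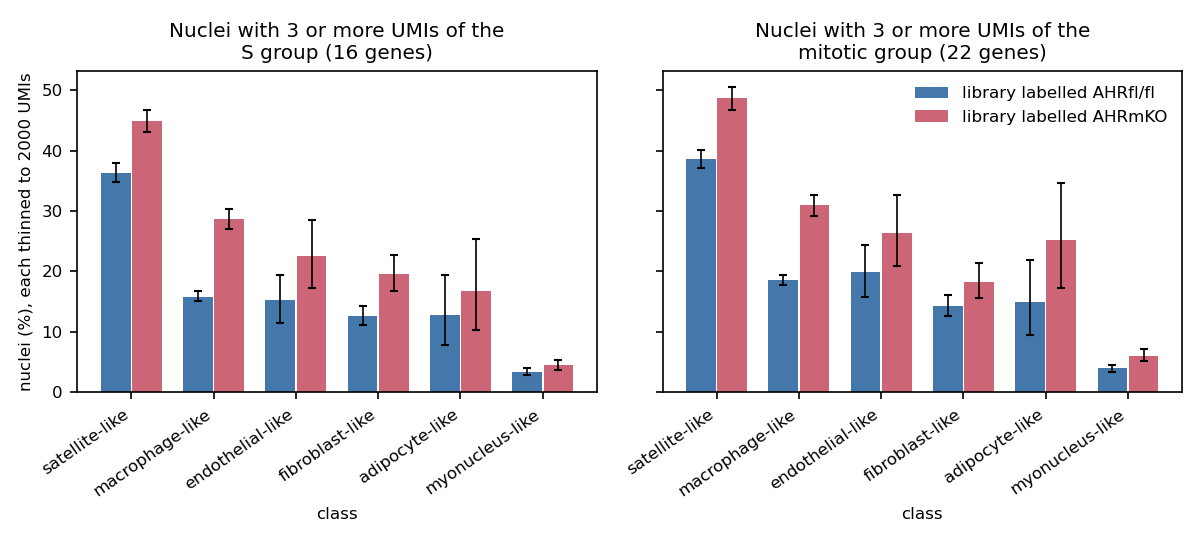
Share of nuclei (y axis, percent) with at least 3 UMIs of the S group (left) or the mitotic group (right) after thinning each nucleus to 2000 UMIs, by class (x axis) and library (blue AHRfl/fl, red AHRmKO). Bars are shares and whiskers exact 95% binomial intervals of counting error; satellite-like nuclei are highest, at 38.6% and 48.7% for the mitotic group, and myonucleus-like nuclei lowest, at 3.91% and 6.03%.

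Barcodes too shallow to be taken as nuclei, called free RNA here, also held these genes. In barcodes of 1 to 100 UMIs, too few for a nucleus, the mitotic group was at 1092.0 and 1286.5 CPM and the S group at 708 and 740.0 CPM, above the level of myonucleus-like nuclei in both libraries. In barcodes of 200 to under 500 UMIs the mitotic group was at 1474 and 1171 CPM and the S group at 740.0 and 762 CPM. In the library labelled AHRfl/fl these levels also reached or passed those of other classes. The S group in free RNA was above the endothelial-like, fibroblast-like and adipocyte-like sums of 670.0, 655 and 683 CPM. The mitotic group was above the fibroblast-like sum of 957 CPM, and in the deeper barcodes above the macrophage-like sum of 1305.0 CPM too. Myonucleus-like nuclei thus do not give the level of free RNA, and its part in the levels of the classes was not tested. Barcodes of 200 to under 500 UMIs numbered 79956 and 138289 and held 33181852 and 47739842 UMIs. Whether they also hold shallow nuclei was not tested.

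Most of the UMIs came from a pair of classes. Satellite-like nuclei, 20.3% of nuclei in the library labelled AHRfl/fl, held 40.4% of its mitotic UMIs, and macrophage-like nuclei, 43.4% of nuclei, held 38.7%. For the library labelled AHRmKO, satellite-like nuclei were 30.1% of nuclei with 52.2% of mitotic UMIs, and macrophage-like nuclei 29.2% with 33.7%. Over all nuclei, whatever their class, the mitotic group was at 1323 and 2528 CPM and the S group at 766 and 1222 CPM. These last values need no cluster names, but they mix levels within classes with the makeup of each library.

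Every 1 of the 38 genes was higher in satellite-like than in myonucleus-like nuclei with intervals apart, in both libraries, where 45.9% (AHRfl/fl) and 44.4% (AHRmKO) of all genes with at least 10 UMIs met that rule. The median fold was 7.97 in the library labelled AHRfl/fl, from 2.21 for Mcm2 to 20.4 for Neil3, a DNA glycosylase. It was 8.49 in the library labelled AHRmKO, from 3.85 for Rrm1 to 13.6 for Bub1, a kinase of the spindle checkpoint. Macrophage-like nuclei exceeded myonucleus-like nuclei for 37 of 38 genes in both libraries, with median folds of 3.73 and 5.54, where 39.8% and 39.3% of all genes did. The counts were 34 and 35 in endothelial-like nuclei, where 32.4% and 29.3% of all genes did, 33 and 35 in fibroblast-like nuclei, where 39.6% and 36.2% did, and 27 and 27 in adipocyte-like nuclei, where 26.2% and 23.2% did. Of the 38 genes, 1 was lower with intervals apart in fibroblast-like nuclei of the first library and 0 of the second, where 21.5% and 20.2% of all genes were. In macrophage-like nuclei the exception was Rrm2, the small subunit of ribonucleotide reductase, at 1.06 and 1.09 times the myonucleus-like level. Rrm2 was also not above that level in fibroblast-like, endothelial-like or adipocyte-like nuclei of either library, so of these 5 classes only satellite-like nuclei exceeded the myonucleus-like level of Rrm2 with intervals apart. Satellite-like exceeded macrophage-like nuclei for all 38 genes in the library labelled AHRfl/fl (median fold 2.18) and for 31 in the library labelled AHRmKO (median fold 1.52), where 3 were lower with intervals apart, among them Brip1 at 0.681 times. Of all genes, 39.2% and 40.7% were higher in satellite-like than in macrophage-like nuclei of these libraries, and 23.8% and 25.4% were lower.

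**Figure D2:**
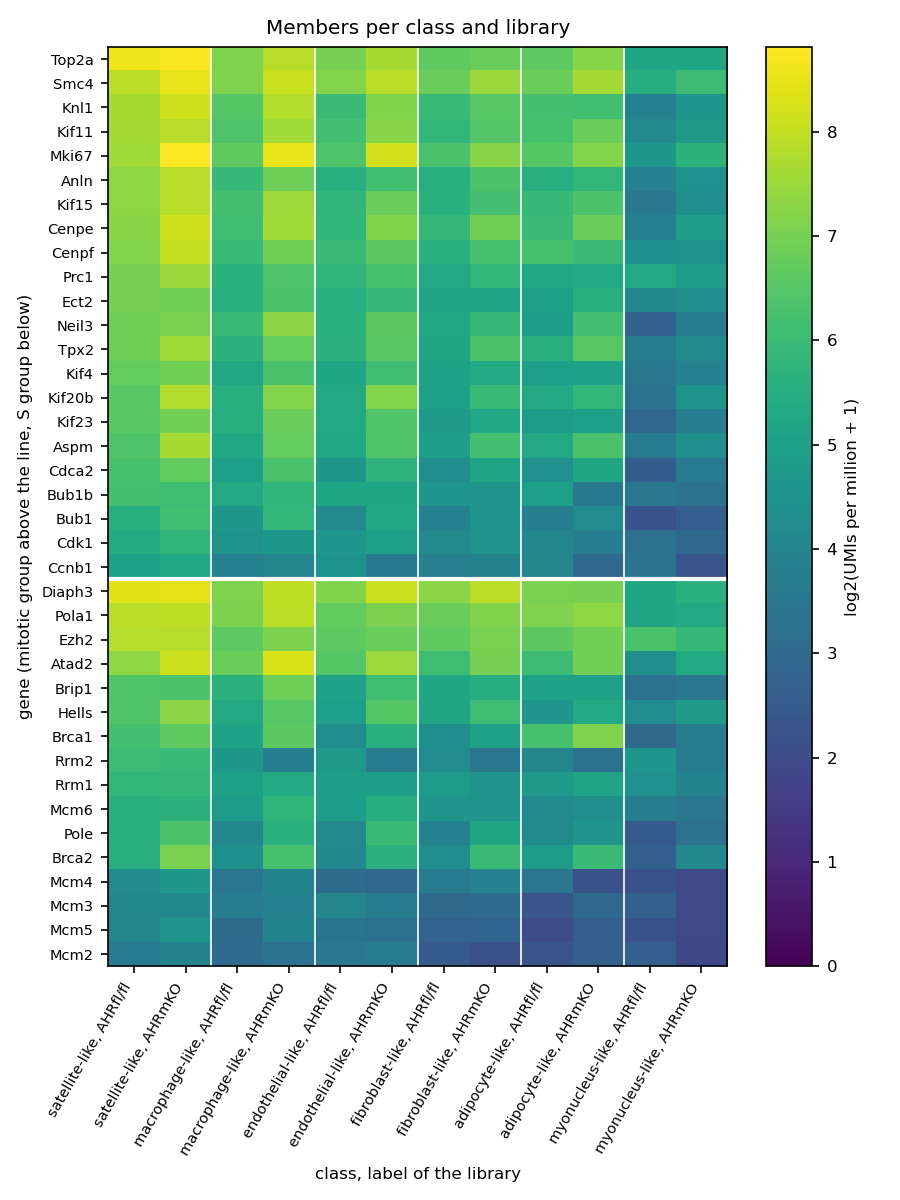
Level of each of the 38 genes (rows; mitotic group above the line, S group below) in 6 classes of each library (columns), as log2 of CPM plus 1 (colour scale). Within each class pair the left column is the library labelled AHRfl/fl; each gene is higher in the satellite-like than in the myonucleus-like column of the same library.

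Nuclear RNA holds unspliced transcripts, and levels between genes are compared here per kilobase of gene, although whether intronic reads were counted is not given in the sources used here. In satellite-like nuclei of the library labelled AHRfl/fl the highest were Top2a at 12.4 CPM per kb, Rrm2 at 11.0, Smc4, a condensin subunit, at 8.19 and Mki67 at 7.23. Mki67 led in the library labelled AHRmKO, in satellite-like nuclei at 16.9 CPM per kb and in macrophage-like nuclei at 13.6 CPM per kb. Mki67 was thus in the fourth place in both classes of one library and in the first place in both of the other. At the low end were Diaph3, a formin that nucleates actin filaments, at 0.709 CPM per kb in satellite-like nuclei of both libraries, Pola1 at 0.723 and 0.754, and Brip1, a helicase that binds BRCA1, at 0.589 and 0.547. Diaph3, Pola1 and Brip1 are also the longest of the listed genes, at 486, 327 and 143 kb, and Rrm2 is the shortest, at 5.91 kb. By UMIs, Diaph3 and Pola1 were the highest of the S group. The counts read the 3′ end, so UMIs need not rise with gene length. The part of the division by length in this order was not tested.

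In nuclei that held UMIs of one group and not the other, most genes went with their own group. In satellite-like and macrophage-like nuclei, those positive for both groups were more frequent than those positive for either alone. They were 1065 of satellite-like nuclei of the library labelled AHRfl/fl against 342 for the S group only and 430 for the mitotic group only. In its macrophage-like nuclei they were 792 against 518 and 737. Its fibroblast-like and endothelial-like nuclei had 118 and 33 with both, against 126 and 35 with the mitotic group only. Diaph3 counts in the S group here, although it followed the mitotic genes, and its part in these counts was not tested. For each gene, nuclei were sorted by the other 37 alone: those with at least 3 thinned UMIs of the mitotic group and none of the S group were set against those with at least 3 of the S group and none of the mitotic group, so no gene chose its own nuclei. They are called mitotic nuclei and S nuclei for this sorting alone, since phase itself was not measured. Of the 22 mitotic genes, 21 had a ratio above 0 in both satellite-like and macrophage-like nuclei of both libraries. Intervals lay above 0 for 20 and 22 of them in satellite-like nuclei and for 21 and 16 in macrophage-like nuclei of the libraries labelled AHRfl/fl and AHRmKO, and Cdk1, at 0.19 (-2.7 to 3.1) in the last, was among those that did not. With nuclei sorted by all 38 genes, the interval lay above 0 for 4.67%, 6.7%, 5.01% and 6.46% of all genes with at least 10 UMIs. The exception was Bub1b, a spindle checkpoint gene, with a log2 ratio of -0.10 (-1.91 to 1.62) in macrophage-like nuclei of the library labelled AHRmKO and 1.03 to 1.49 in the other 3 settings. Of the 16 S genes, 14 had a ratio below 0 in all 4 settings, and intervals lay below 0 for 9, 11, 8 and 9 of the 16 in the same order, where 5.97%, 7.86%, 4.43% and 7.79% of all genes had one. The interval of Rrm2 held 0 in each setting. Brca2, a DNA repair gene, was mixed, at -0.90, -0.50, -1.06 and 0.43, and only the third of these had an interval that left out 0.

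Diaph3 was the gene of the S group that followed the mitotic genes. In satellite-like nuclei it was at 106.0 CPM in S nuclei and 594 CPM in mitotic nuclei of the library labelled AHRfl/fl (log2 ratio 2.47, 2.07 to 2.92). In the library labelled AHRmKO it was at 66.2 and 424 CPM (2.67, 2.14 to 3.26). In macrophage-like nuclei the log2 ratios were 2.59 (2.12 to 3.11) and 1.95 (1.46 to 2.48). By this ordering Diaph3 sat among kinesins and kinetochore genes such as Kif11, which pushes the spindle poles apart, at 3.91, 3.72, 2.21 and 1.91 in the same 4 settings. The sets of nuclei differed: with Diaph3 left out of the sorting, 187, 137, 395 and 141 nuclei were mitotic nuclei. With Kif11 left out they were 110, 95, 275 and 97. Pola1 went the other way, at 344 and 117 CPM in satellite-like nuclei of the library labelled AHRfl/fl (-1.55, -2.02 to -1.10) and 451 and 93.9 CPM in the other (-2.26, -2.79 to -1.76). Its log2 ratios in macrophage-like nuclei were -0.70 and -1.43, and the medians of the S group in the 4 settings were -0.96, -1.32, -0.94 and -1.32.

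**Figure D3:**
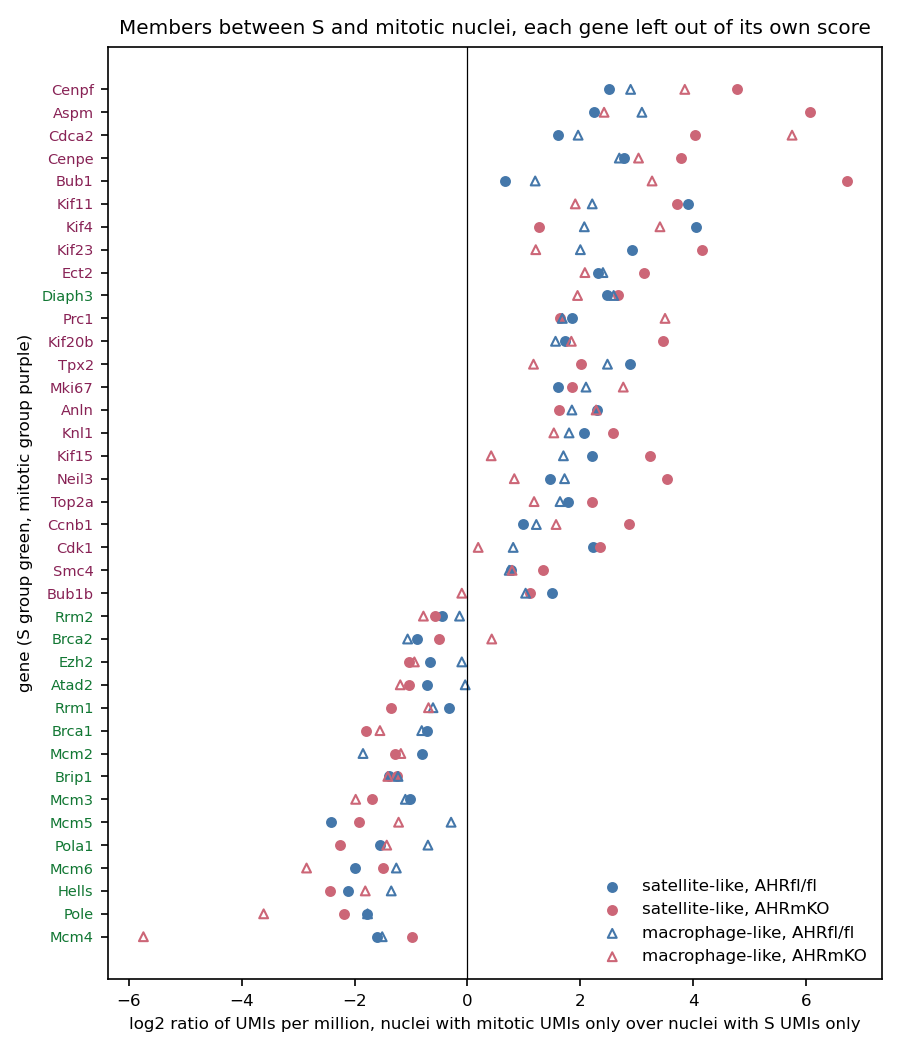
Log2 ratio of each gene's CPM (x axis, 0.5 added to both sides) between nuclei with mitotic UMIs only and nuclei with S UMIs only, for each gene (y axis; S group green, mitotic group purple), with the gene left out of its own sorting. Filled circles are satellite-like and open triangles macrophage-like nuclei, blue AHRfl/fl and red AHRmKO; 21 mitotic genes and Diaph3 lie above 0 in all 4 settings, and the extreme points of Bub1, Cdca2 and Mcm4 have 0 UMIs on one side, so their size depends on the 0.5 added.

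Genes outside the list followed the same split. Nuclei were sorted by their thinned UMIs of the 38 genes into those with no UMI, those with fewer than 3 of each group, those positive for the S group only, for both groups and for the mitotic group only. A further 4 lists, none holding any of the 38 genes, were then summed: 37 other S phase genes, 42 other mitosis genes, 23 cyclins, kinases and E2F genes, and 12 genes of cell cycle arrest. In satellite-like nuclei of the library labelled AHRfl/fl the other S phase genes were at 442 CPM in nuclei without a UMI of the 38, 1896 CPM in S-only nuclei, 2286 CPM in nuclei with both and 1040 CPM in mitotic-only nuclei. The other mitosis genes were at 293, 668, 4397 and 3006 CPM in the same states. So the S list was higher in S-only than in mitotic-only nuclei and the mitosis list the other way. The other satellite-like and both macrophage-like settings showed the same order, with the mitotic-only sum of the mitosis list 2.58 to 5.15 times its S-only sum and that of the S list 0.501 to 0.595 times. Gene by gene, 31 to 34 of the 37 S phase genes were higher in S-only nuclei, where 43.8% to 51.6% of all genes were, and 40 or 41 of the 42 mitosis genes in mitotic-only nuclei, where 48.4% to 56.2% of all genes were. Nuclei positive for both groups were deeper than those without a member UMI, at medians of 4506 against 3585 UMIs in satellite-like and 4163 against 3234 UMIs in macrophage-like nuclei of the library labelled AHRfl/fl. Depth was equalised only for the sorting.

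**Figure D4:**
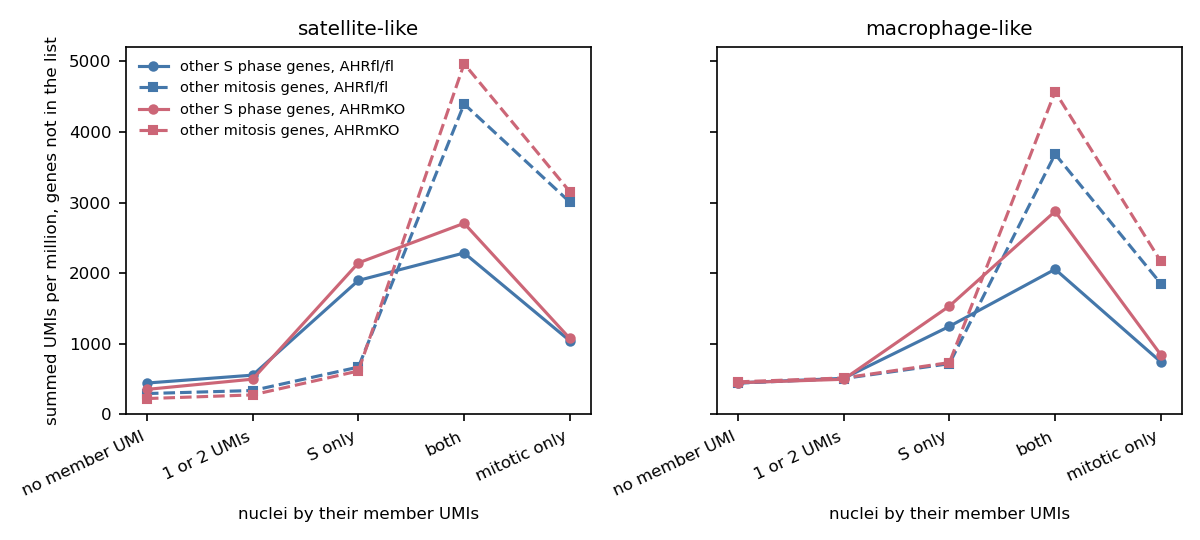
Summed CPM (y axis) of 37 other S phase genes (solid lines, circles) and 42 other mitosis genes (dashed lines, squares) in nuclei sorted by their UMIs of the 38 genes (x axis), in satellite-like (left) and macrophage-like (right) nuclei, for the libraries labelled AHRfl/fl (blue) or AHRmKO (red). In satellite-like nuclei of the library labelled AHRfl/fl the mitosis list is at 293 CPM without a UMI of the 38 genes, 668 CPM in S-only nuclei and 4397 CPM in nuclei with both groups.

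Single genes of these lists ranged widely between the states, and Kif14, Dtl and Cdc6 were chosen after their values were seen. Kif14, a kinesin of cytokinesis, was at 2.82 CPM in satellite-like nuclei of the library labelled AHRfl/fl without a UMI of the 38 genes, 2.20 in S-only, 146 in both and 118 in mitotic-only nuclei. Dtl, which marks replication factors for destruction in S phase, ran the other way, at 6.78, 133, 97.7 and 23.3 CPM. Cdc6, which loads the MCM helicase, was at 0 UMIs (up to 2.08 CPM), 35.1, 21.2 and 3.71 CPM. In macrophage-like nuclei of the same library Kif14 was at 1.84, 7.52, 107 and 59.0 CPM and Dtl at 5.24, 61.5, 83.7 and 12.3 CPM. Named by their UMI counts, the leading genes of the lists also followed: in satellite-like nuclei of the library labelled AHRfl/fl Wdhd1, a replication fork protein, was at 142 CPM in S-only and 52.5 CPM in mitotic-only nuclei, Prim2, a primase subunit, at 144 and 67.4 CPM, and Pold3, of polymerase delta, at 82.7 and 51.5 CPM. Ncapd2, of condensin, was at 54.9 and 126 CPM and Smc2, the partner of Smc4, at 63.7 and 92.3 CPM, while Ncapg2 was close, at 101.0 and 96.6 CPM.

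Most of the 23 cyclins, kinases and E2F genes were higher in the nuclei that held both groups than in those without a UMI of the 38, with intervals apart for 16 and 15 in satellite-like and 17 and 17 in macrophage-like nuclei of the libraries labelled AHRfl/fl and AHRmKO. Those lower with intervals apart were 1, 3, 1 and 1. Of all genes with at least 10 UMIs, 11.7%, 14.6%, 14.4% and 13.7% were higher and 10.2%, 9.17%, 10.3% and 9.53% lower by the same rule, and the 2 kinds of nuclei also differed in depth and in myofibre markers. Their summed CPM with both groups was 1.20, 1.35, 1.15 and 1.15 times that without. Of the 12 arrest genes, 2, 1, 5 and 1 were higher and 5, 4, 3 and 2 lower with intervals apart, in the same order and against the same shares of all genes, and their sums were 0.741, 0.495, 0.983 and 0.922 times. The abundant Ccnd3 went against most of its list. Ccnd3, a D-type cyclin, was at 940.0 CPM (895 to 986) without a UMI of the 38 genes and 357 CPM (341 to 374) with both in satellite-like nuclei of the library labelled AHRfl/fl. The other library had 503 and 296 CPM. In macrophage-like nuclei it was at 1333 and 792 CPM, and at 1548 and 627 CPM. Cdkn1c, which encodes the arrest protein p57, was at 246 and 107 CPM in satellite-like nuclei of the first library, and at 423 (385 to 463) and 68.5 CPM (61.5 to 75.9) in those of the second. The Cdkn1c pairs of macrophage-like nuclei were 131 and 104 CPM, and 13.4 and 21.5 CPM, so the lower value with both groups was not seen in macrophage-like nuclei of the library labelled AHRmKO. Myog, a factor of muscle differentiation, was at 75.3 and 14 CPM in satellite-like nuclei of the library labelled AHRmKO and at 108 and 79.5 CPM in the other. Pax7, which marks satellite cells, was at 603 and 742 CPM, and at 823 and 644 CPM in the other, so its direction differed between libraries. Myofibre markers moved between the same states, at 8266 and 4311 CPM and at 20503 and 7864 CPM in satellite-like nuclei of the libraries labelled AHRfl/fl and AHRmKO, and at 8215 and 3752 CPM and 1972 and 2382 CPM in macrophage-like nuclei, and their part was not tested. E2f7, a repressor of the E2F family, was higher with both groups than without, at 7.34 and 153 CPM in satellite-like and 1.84 and 83.2 CPM in macrophage-like nuclei of the library labelled AHRfl/fl.

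In macrophage-like nuclei the genes were higher in the library labelled AHRmKO. The summed log2 ratio was 1.19 (1.17 to 1.21) for the mitotic group and 1.0 (0.98 to 1.03) for the S group. Of the 38 genes, 13 mitotic and 6 S genes were at least 2-fold higher and none was 2-fold lower, where 3.03% of all 18812 genes tested were 2-fold higher and 21.1% were 2-fold lower. All genes had a median log2 ratio of -0.21 in this class, -0.14 in satellite-like and fibroblast-like nuclei, -0.15 in endothelial-like, -0.10 in adipocyte-like and -0.12 in myonucleus-like nuclei, so ratios are relative to a shift of that size. Mki67 had 3491 UMIs in the library labelled AHRfl/fl, at 98.9 CPM (95.7 to 102.0), against 4545 UMIs at 362 CPM (352 to 373) in the other, a log2 ratio of 1.87 (1.81 to 1.94). The highest S gene was Brca2, also at 1.87 (1.76 to 2.04; 20.3 and 75.7 CPM). The lowest was Rrm2, at -0.91 (-1.18 to -0.69; 24.8 and 13 CPM), the only 1 of the 38 with an interval below 0 here, where 41.9% of all genes had one. Rrm2 was also lower in free RNA of this library, at 58.7 and 33.1 CPM in barcodes of 1 to 100 UMIs and 99.1 and 23.5 CPM in those of 200 to under 500 UMIs, and its part in the ratio was not tested.

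By role, the kinesins of the spindle were all higher in macrophage-like nuclei of the library labelled AHRmKO, from Kif4 at 1.07 (0.96 to 1.20) over Kif11 at 1.20 (82.3 and 190.0 CPM), Kif23 at 1.27, Kif15 at 1.31 and Cenpe at 1.48 to Kif20b at 1.63 (1.55 to 1.74). At the kinetochore, Knl1, its scaffold, was at 1.31 (1.24 to 1.39; 89.4 and 223 CPM), Bub1 at 1.21, Cenpf at 0.97 and Bub1b at 0.48 (0.35 to 0.62). On the spindle poles Aspm was at 1.53 (36.6 and 106 CPM) and Tpx2, an activator of Aurora A, at 1.08. On chromosomes Smc4 was at 0.97 (138 and 271 CPM), Top2a at 0.77 (136 and 232 CPM) and Cdca2, which brings a phosphatase back to chromatin, at 1.30. The cytokinesis genes Anln, Prc1 and Ect2 were at 0.96, 0.75 and 0.68. The kinase that drives mitosis and its cyclin had the lowest ratios of the mitotic group: Cdk1 was at 0.22 (0.04 to 0.42; 21.3 and 25 CPM) and Ccnb1, cyclin B, at 0.12 (-0.12 to 0.37; 13.9 and 15.1 CPM).

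Of the replication genes in macrophage-like nuclei, Pole, the leading-strand polymerase, was at 1.56 (1.42 to 1.76; 15.7 and 47.2 CPM) and Pola1 at 0.85 (0.79 to 0.92; 133 and 241 CPM). The MCM helicase subunits ran from Mcm3 at 0.17 (-0.09 to 0.44) and Mcm2 at 0.30 (-0.01 to 0.64) over Mcm4 at 0.54 and Mcm6 at 0.90 to Mcm5 at 0.91 (0.68 to 1.23). Rrm1, the large subunit of ribonucleotide reductase, was at 0.40 (0.25 to 0.56), against -0.91 for its partner Rrm2. Of the repair genes Brca1 was at 1.54 and Brip1 at 1.20. Of the chromatin genes Atad2, a bromodomain ATPase, was at 1.46 (1.40 to 1.53; 112 and 309 CPM), Hells, a remodeller, at 1.21 (39.1 and 91.0 CPM) and Ezh2 at 0.46 (0.38 to 0.55; 96.7 and 134 CPM). Diaph3 was at 0.86 (138 and 251 CPM).

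In satellite-like nuclei the summed log2 ratio was 0.56 (0.54 to 0.58) for the mitotic and 0.31 (0.28 to 0.33) for the S group, below the macrophage-like values. The size of that gap depended on the nuclei taken: without the top Scrublet scores the mitotic ratios were 1.11 in satellite-like and 1.18 in macrophage-like nuclei. The order of the unthinned share differences, another measure, changed there, at 24.6 points in satellite-like and 15.8 points in macrophage-like nuclei. With doublets kept these were 11.1 and 11.3 points. That alternative was also clustered and named anew, and its satellite-like nuclei numbered 4676 and 1946, against 3874 and 2714. In the states given above, 0.44% to 2.91% of satellite-like nuclei had top scores. The parts of leaving out nuclei and of naming anew were not tested. Mki67, Kif20b, Aspm and Brca2 were at least 2-fold higher and none was 2-fold lower, where 4.89% of all 18010 genes tested were 2-fold higher and 17.2% 2-fold lower. Mki67 was at 192 CPM (185 to 199) and 448 CPM (437 to 459), a log2 ratio of 1.22, Kif20b at 1.23 (94.2 and 222 CPM), Aspm at 1.25 (83.5 and 199 CPM) and Brca2 at 1.47 (46.3 and 129 CPM). Next came Cenpe at 0.95, Hells at 0.89 (83.7 and 156 CPM), Cenpf at 0.83, Atad2 at 0.80 (159 and 277 CPM) and Pole at 0.74. Intervals lay above 0 for 20 of 22 mitotic and 8 of 16 S genes, where 26.1% of all genes had such an interval, and below 0 for Bub1b alone, where 40% of all genes did, at -0.14 (-0.27 to -0.02; 73.2 and 66.2 CPM). Several abundant genes differed little: Top2a was at 387 and 422 CPM (0.13, 0.08 to 0.18), Diaph3 at 344 and 345 CPM (0.00, -0.06 to 0.06), Pola1 at 237 and 247 CPM (0.06), Ezh2 at 225 and 228 CPM (0.02) and Kif11 at 196 and 231 CPM (0.23). Smc4 was at 245 and 363 CPM (0.57) and Knl1 at 201 and 288 CPM (0.51). The count of 2-fold higher genes in satellite-like nuclei depended on which nuclei were taken as satellite-like and ranged from 3 to 17 over 12 alternatives, against 15 to 26 in macrophage-like nuclei. The share of all genes past 2-fold was not counted in the alternatives, so these counts are no result about the members alone.

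**Figure D5:**
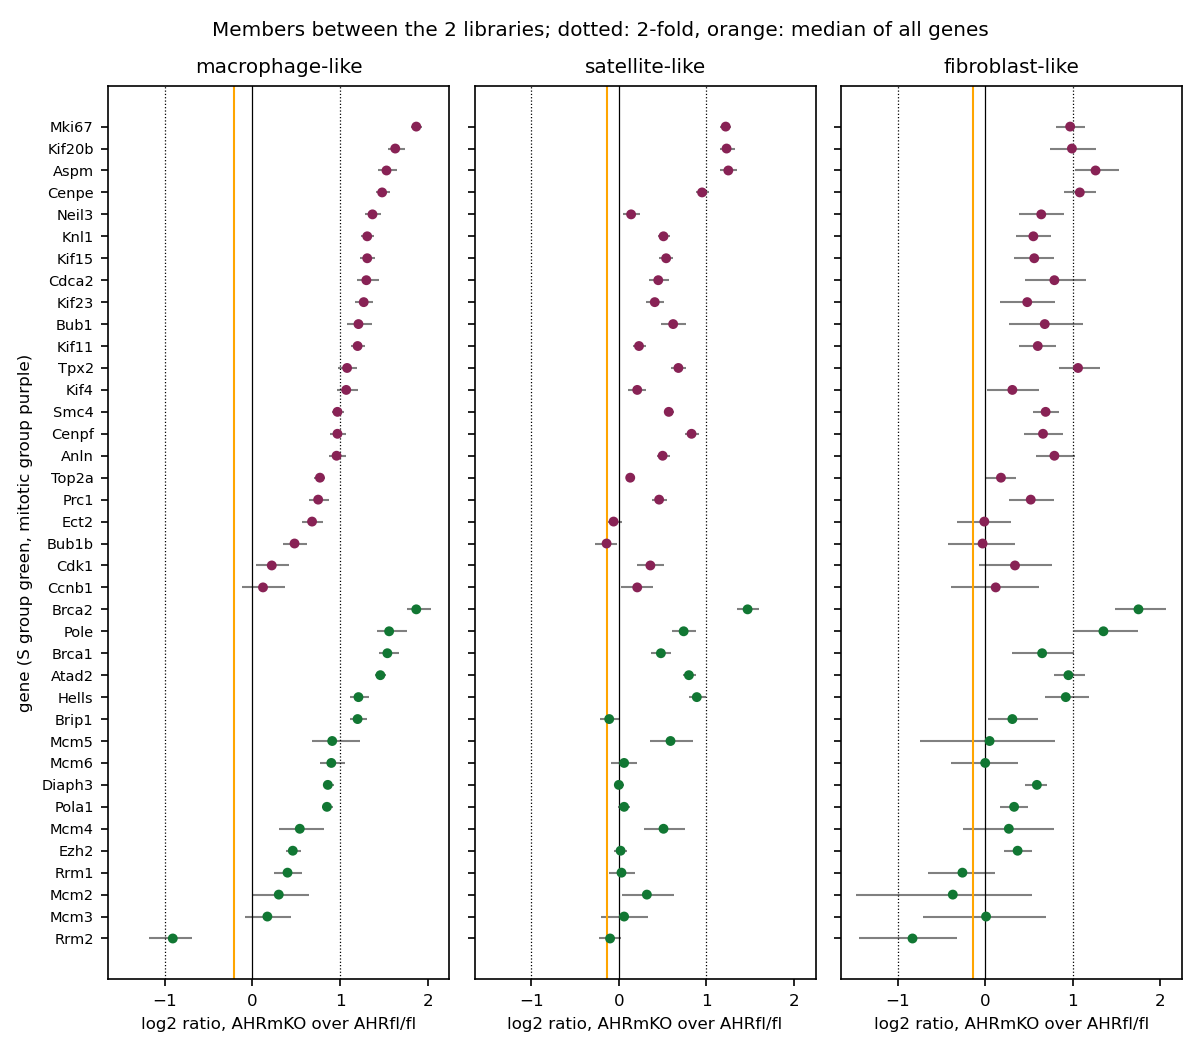
Log2 ratio of CPM, library labelled AHRmKO over AHRfl/fl (x axis), for each gene (y axis; mitotic group purple, S group green) in macrophage-like, satellite-like and fibroblast-like nuclei. Points are ratios with 0.5 added, grey lines 95% intervals of counting error, dotted lines 2-fold and the orange line the median of all genes. Mki67 is at 1.87 in macrophage-like and 1.22 in satellite-like nuclei. Rrm2 is at -0.91 in macrophage-like and -0.83 in fibroblast-like nuclei. In satellite-like nuclei no S gene, Rrm2 included, has an interval below 0.

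The satellite-like difference was larger in the clusters led by Pax7 than in those led by Nrcam, a cell adhesion gene. Satellite-like nuclei of the library labelled AHRfl/fl lay mostly in clusters led by Bmp6, Pde1c, Thsd4 and Pax7 (2754 nuclei) and by Nrcam and Hmga2 (1037 nuclei), and those of the library labelled AHRmKO in clusters led by Pax7 and Thsd4 (1214 nuclei) and by Nrcam and Iqsec3 (1395 nuclei). In the Pax7-led pair, thinned mitotic shares were 35.7% and 51.2% and mitotic sums 2992 and 5032 CPM. In the Nrcam-led pair, shares were 45.1% and 46.7% and sums 2832 and 3724 CPM. Within a single cluster the values differed from these pairs: the 61 nuclei of the library labelled AHRfl/fl in the cluster led by Nrcam and Iqsec3 were at 44.3% and 3710 CPM, close to the 3724 CPM of the other library. In the cluster led by Bmp6 and Pde1c, the 94 nuclei of the library labelled AHRmKO were at 45.7% and 4766 CPM, against 35.7% and 2992 CPM. The summed log2 ratios over clusters led by Pax7 were 0.73 for the mitotic and 0.47 for the S group, and over those led by Nrcam 0.39 and 0.13. This pairing was chosen after the clusters had been seen, and the difference between the pairs was not tested. The myofibre markers in satellite-like nuclei were at 6032 and 12932 CPM and the median mitochondrial share at 1.96% and 3.32%, and their part in the difference was not tested.

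Macrophage-like nuclei also came from different clusters. In the library labelled AHRfl/fl they lay in 5 clusters, whose thinned mitotic shares ran from 10.2% in the one led by Fgr (2669 nuclei) over 14.2%, 15.5% and 25.8% to 26.5% in the one led by Alcam and Tbxas1 (2175 nuclei). The cluster at 25.8% (1456 nuclei) was led by Gm11149 and 4930512H18Rik, which were also among the leading genes of the immature fibre clusters. Its median depth was 7066.5 UMIs, and its relative median was 1.86 times the library's. Whether it holds mixed barcodes was not tested. From the library labelled AHRmKO, 2550 of the 2636 nuclei lay in 1 cluster, led by Cd84 and Tbxas1, at 31.2%. That value was above each of the 5 clusters of the other library. Mitotic sums in the same order were 607, 1093, 1124, 1310.0 and 2235 CPM against 3021 CPM. Here myofibre markers summed to 6373 and 2379 CPM, the median mitochondrial share was 0.94% and 2.50%, and their part was not tested.

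Fibroblast-like and endothelial-like nuclei each formed 1 cluster that held both libraries. In fibroblast-like nuclei (1712 and 709) the log2 ratios were 0.66 (0.61 to 0.71) for the mitotic and 0.55 (0.49 to 0.62) for the S group, and 3 mitotic (Aspm, Cenpe, Tpx2) and 2 S genes (Brca2, Pole) were at least 2-fold higher and none 2-fold lower, where 5.98% of 16686 genes were higher and 20.9% lower. After thinning, the shares of positive nuclei differed by 6.99 points (3.77 to 10.4) for the S and 4.08 points (0.894 to 7.49) for the mitotic group. Unthinned, at median depths of 4375.5 and 3259 UMIs, they differed by 3.65 points (-0.507 to 7.88) and 2.02 points (-1.94 to 6.11), with intervals that held 0. With a minimum of 1000 UMIs the unthinned S share was lower in the library labelled AHRmKO, by -4.41 points (-7.58 to -1.19). Mki67 was at 76.1 and 149 CPM (0.97, 0.81 to 1.14) and Brca2 at 18.4 and 63.2 CPM (1.75). In endothelial-like nuclei (343 and 227) the ratios were 0.97 (0.89 to 1.05) and 0.76 (0.65 to 0.87), with 10 mitotic and 5 S genes 2-fold higher and Rrm2 2-fold lower, where 5.57% of 13207 genes were higher and 20.4% lower. Mki67 was there at 82.5 and 294 CPM (1.83, 1.56 to 2.12) and Kif20b at 40.2 and 143 CPM (1.82). Shares of positive endothelial-like nuclei differed after thinning by 7.31 points (0.831 to 14.1) for the S and 6.61 points (-0.382 to 13.8) for the mitotic group. Unthinned, they differed by 3.77 points (-4.19 to 11.8) and 5.71 points (-2.45 to 13.9). In adipocyte-like nuclei (141 and 107), 2 mitotic and 1 S gene were 2-fold higher and 2 mitotic and 1 S gene 2-fold lower, where 9.95% of 11478 genes were higher and 18.2% lower, and 3 of the 38 genes had too few UMIs to be counted.

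Myonucleus-like nuclei also held more mitotic UMIs in the library labelled AHRmKO, at a summed log2 ratio of 0.48 (0.43 to 0.53), while the S group was at 0.11 (0.05 to 0.17). There 5 mitotic and 2 S genes were 2-fold higher and Ccnb1 2-fold lower, where 5.94% of 18269 genes were higher and 16.4% lower. Mki67 was at 24.8 and 51.1 CPM (1.03, 0.87 to 1.21) and Ccnb1 at 9.44 and 3.90 CPM (-1.18). The pooled nuclei differed in makeup. The immature fibre clusters held 1382 and 923 nuclei of the library labelled AHRfl/fl, against 1 and 0 of the other. In a fibre cluster with 446 and 62 nuclei of the libraries labelled AHRfl/fl and AHRmKO, mitotic sums were 402 and 308 CPM. In another, with 60 and 1737 nuclei, they were 271 and 398 CPM. The part of makeup in these ratios, and in the level subtracted next, was not tested. With the myonucleus-like level of each library subtracted, the macrophage-like log2 ratios were 1.37 for the mitotic and 1.36 for the S group, and the S ratio in satellite-like nuclei was 0.35. Macrophage-like and fibroblast-like nuclei of the library labelled AHRmKO carried fewer myofibre-marker UMIs than those of the other library, and satellite-like nuclei more.

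In 19 of the 38 genes (Anln, Aspm, Atad2, Brca1, Brca2, Cdca2, Cenpe, Hells, Kif11, Kif15, Kif20b, Kif23, Kif4, Knl1, Mki67, Neil3, Pole, Smc4 and Tpx2) the interval lay above 0 in satellite-like, macrophage-like, endothelial-like, fibroblast-like and myonucleus-like nuclei, where 7.5% of 12908 genes met that rule. In none did it lie below 0 in all 5, where 15% of genes did. Brca2 was at least 2-fold higher in each of these 5 classes, at 1.5 in myonucleus-like nuclei, and Aspm in each except myonucleus-like nuclei, where it was at 0.78. Brca2 was also higher in free RNA of the library labelled AHRmKO, at 14.1 and 26.9 CPM in barcodes of 1 to 100 UMIs and 16.4 and 27.7 CPM in those of 200 to under 500. In free RNA of 1 to 100 UMIs, 14 of the 38 genes had an interval of the ratio above 0 and 5 below, where 8.02% and 30.4% of all genes had one. In that of 200 to under 500 UMIs these were 16 and 19, where 33.6% and 43.2% of all genes had one. Kif15, Knl1, Neil3, Cdca2, Anln, Pole, Atad2, Hells, Diaph3, Brca1 and Brca2 lay above 0 in both, and Mki67 and Cenpe above 0 in the first and below 0 in the second. The part of free RNA in the ratios of these genes was not tested. Brca2 overlaps other annotated genes on both strands and Pole, Kif4 and Prc1 overlap genes on the opposite strand, while Anln overlaps one on its own strand. Whether counting used the strand is not given in the sources used here, so their UMIs may include those of the neighbours. Rrm2 was the lowest of the S group in macrophage-like, endothelial-like, fibroblast-like and myonucleus-like nuclei, at -0.91, -1.12, -0.83 and -0.96, and was at -0.10 in satellite-like nuclei.

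The relation of the ratio with gene length differed among the classes. Across the 38 genes, which are not independent replicates, Pearson's r between log2 gene length and the log2 ratio was 0.47 in macrophage-like, 0.50 in endothelial-like, 0.36 in fibroblast-like and 0.49 in myonucleus-like nuclei, with 0.23 in adipocyte-like and -0.06 in satellite-like nuclei (Spearman's rho 0.43, 0.42, 0.34, 0.48, 0.11 and -0.04). All genes showed a like pattern at the short end: in macrophage-like nuclei the median log2 ratio of genes under 10 kb was -0.49, against -0.08 for 20 to 40 kb and -0.03 for 40 to 80 kb. The members stood above these medians, at -0.39 for the 2 under 10 kb (Rrm2 and Ccnb1), 0.30 for the 5 of 10 to 20 kb, 1.09 for the 10 of 20 to 40 kb, 1.31 for the 17 of 40 to 80 kb and 0.97 for the 4 over 80 kb, where all genes were at -0.15. In satellite-like nuclei the same bins of members were at 0.05, 0.36, 0.46, 0.54 and 0.03, so the median did not go on rising in the longest bin of either class.

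Other cell cycle genes were read the same way. In macrophage-like nuclei 14 of 37 other S phase genes were 2-fold higher and 2 lower (median 0.71), and 13 of 42 other mitosis genes were higher and 1 lower (median 0.70), where 3.03% of all genes were 2-fold higher and 21.1% lower. Incenp, of the chromosomal passenger complex, was at 41.8 and 120.0 CPM (1.51), Wdhd1 at 43.2 and 122 CPM (1.48), Ncapd2 at 36.1 and 82.6 CPM (1.18), Pold3 at 62.6 and 102 CPM (0.71) and Ncapg2 at 156 and 204 CPM (0.38). Gins2, of the replicative helicase, went the other way, at 14.7 and 5.26 CPM (-1.40), as did Cdc20, which activates the anaphase-promoting complex, at 14.4 and 6.53 CPM (-1.09). In satellite-like nuclei 4 other S phase genes were higher and 1 lower (median 0.34), and 2 other mitosis genes were higher and none lower (median 0.20), where 4.89% of all genes were higher and 17.2% lower. Of the 23 cyclins, kinases and E2F genes, 5 were 2-fold higher and 1 lower in macrophage-like and none either way in satellite-like nuclei. Those higher included Wee1, which restrains CDK1, at 67.5 and 178 CPM (1.39). The most abundant, Ccnd3, Cdk6 and Rb1, were at -0.01, -0.11 and -0.38 in macrophage-like and -0.70, -0.30 and 0.09 in satellite-like nuclei. Of the 12 arrest genes, 4 were 2-fold lower and none higher in macrophage-like nuclei (median -0.59), where 21.1% of all genes were 2-fold lower. Intervals lay above 0 for 3 of the 12 and below 0 for 8, where 24.6% and 41.9% of all genes had one. Among them Cdkn1c was at 126 and 24.9 CPM (-2.32) and Cdkn1a, which encodes p21, at 84.2 and 27.2 CPM (-1.61), while Btg1 was at 116 and 115 CPM (-0.01). Free RNA differed in the same direction: in barcodes of 200 to under 500 UMIs Cdkn1c was at 784 and 55.8 CPM and Cdkn1a at 407 and 53.5 CPM, and its part was not tested. In satellite-like nuclei 2 arrest genes were 2-fold lower and 1 higher, where 17.2% and 4.89% of all genes were, with Cdkn1c at 161 and 231 CPM (0.52), Cdkn1a at 109 and 82.1 CPM (-0.40) and Btg1 at 114 and 83.1 CPM (-0.45).

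The 10 genes named by their UMI counts lie, in GENCODE M21 on GRCm38, at chromosome 11, 98992943 to 99024189 (Top2a), chromosome 7, 135689784 to 135716361 (Mki67), chromosome 3, 69004738 to 69034623 (Smc4), chromosome 2, 119047119 to 119105501 (Knl1), chromosome 19, 37376403 to 37421859 (Kif11), chromosome 14, 86655367 to 87141235 (Diaph3), chromosome X, 93304767 to 93632155 (Pola1), chromosome 15, 58094044 to 58135082 (Atad2), chromosome 6, 47530139 to 47595341 (Ezh2) and chromosome 19, 38930915 to 38971051 (Hells). A UMI was counted per gene, without a record of whether it came from an exon or an intron.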

How the data were processed

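Whole-number UMI counts per gene and barcode, raw and for all barcodes, were deposited by the authors; Cell Ranger 7.0.1 and the build mm10 are named in the submitters' processing notes. Annotation version, use of strand and of intronic reads are not given in the sources used here. Barcodes with at least 2000 UMIs were taken as nuclei, with no mitochondrial limit and with doublets kept; leaving out the top Scrublet scores was an alternative. Both libraries were clustered together (scanpy 1.11.5, 2000 variable genes without cell cycle genes, 30 components, 15 neighbours, Leiden resolution 0.8). A cluster was named when at least 3 markers of a class were 2-fold above the other clusters' median (10 CPM added to each side). It stayed unnamed where markers of a different class outnumbered its own among its 10 leading genes. Fibre and immature fibre nuclei were pooled after the clusters had been seen. Sums of UMIs over a class of 1 library were scaled to 1000000 (CPM). Log2 ratios of single genes have 0.5 CPM added, which understates changes of low genes. With 1 library per group no test was made; a gene was called past 2-fold if it had at least 10 UMIs over both libraries. Intervals are exact binomial, Poisson, conditional binomial or Newcombe intervals at 95%. They cover counting error only. Calculations were tested on simulated data. Named genes were the 5 of each group, and the 3 of each other list, with the most UMIs in satellite-like and macrophage-like nuclei, beside genes at the ends of a range, chosen after their values were seen. The 38 genes, markers and lists were chosen with earlier results of these data known, so they are no independent support.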

Additional observations from a re-analysis of the deposited data

Results flagged for a closer look

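Bub1b, a gene of the spindle checkpoint, had ratios of opposite sign in 2 classes: its log2 ratio, library labelled AHRmKO over AHRfl/fl, was -0.14 in satellite-like and 0.48 in macrophage-like nuclei, with intervals below and above 0. The median of all genes in satellite-like nuclei was also -0.14, the same value as for Bub1b, so centred on all genes the opposite sign is lost. The difference between the classes was not tested.

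Barcodes too shallow to be nuclei, which the comparisons of classes do not use, also held UMIs of these genes, and the libraries differed in no single direction. The mitotic group was at 1286.5 CPM in the library labelled AHRmKO against 1092.0 CPM in the library labelled AHRfl/fl in barcodes of 1 to 100 UMIs. The S group was at 762 against 740.0 CPM in barcodes of 200 to under 500 UMIs, where the mitotic group was lower, at 1171 against 1474 CPM. In barcodes of 1 to 100 UMIs the S group was at 740.0 (705 to 776) against 708 CPM (674 to 745), with overlapping intervals.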

How the results depend on the processing

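Of 216 alternative values, 116 had stayed, 100 had moved and 0 had reversed a difference whose interval left out 0. A share difference or ratio had stayed when it lay within the interval of the value reported. Counts of members were judged by a fixed fold of the reported count, or equality with it, and not by an error. For the alternatives they stand without the share of all genes past 2-fold, which was not counted there. In satellite-like and macrophage-like nuclei every share difference and summed ratio stayed above 0 under each alternative run. The values that moved follow as share differences in points and summed log2 ratios, library labelled AHRmKO minus or over AHRfl/fl, and as members at least 2-fold higher; the cause was not tested.

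Satellite-like nuclei had S differences of 11.1 points and 0.31, mitotic ones of 11.1 points and 0.56, and 4 members 2-fold higher. With a minimum of 3000 UMIs the S values were 13.9 and 0.55, the mitotic ratio 0.87 and the count 8. Without the top Scrublet scores they were 23.5 and 0.74, 24.6 and 1.11, and 17. With libraries clustered separately they were 15.5 and 0.66, 17.4 and 1.04, and 14. With classes from each nucleus's marker score they were 16.4 and 0.71, 16.2 and 0.96, and 11. With cell cycle genes kept in clustering they were 6.36 and 0.16, and 7.14 and 0.33. Thinned, the S values were 8.6 and 0.36 and the mitotic ratio 0.63. Without barcodes over 5% mitochondrial UMIs the ratios were 0.52 and 0.86 and the count 8, and at resolution 1.6 they were 0.43 and 0.72 and the count 7. Centred on all genes, the ratios were 0.45 and 0.7. Without Ezh2 and Diaph3 the S values were 14.3 and 0.46. A minimum of 1000 UMIs gave a mitotic ratio of 0.59. Chosen after seeing the data, Pax7-led clusters gave 14.5 and 0.47, and 15.7 and 0.73, Nrcam-led clusters 5.12 and 0.13, and 2.93 (interval -0.954 to 6.82, so no longer apart from 0) and 0.39, and subtracting the myonucleus-like level an S ratio of 0.35. Nuclei taken as satellite-like numbered 3874 and 2714, and 4676 and 1946 without the top Scrublet scores.

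Macrophage-like nuclei had S differences of 14.5 points and 1.0, and mitotic ones of 11.3 points and 1.19. Minimums of 3000 and 1000 UMIs gave S values of 22 and 0.94 and of 8.05 and 0.92, and mitotic values of 16.8 and 1.03 and of 8.12 and 1.1. Separate clustering gave 21.1 points for S, and 18 and 1.16 for mitotic genes. The mitochondrial limit gave 22.9 and 1.08, and 18.2 and 1.26, and resolution 1.6 gave 20.3 and 1.07, and 15.8 and 1.22. Shares without the top Scrublet scores were 19.6 and 15.8 points, with cell cycle genes kept 19.9 and 16.2, and without the high-UMI clusters (added after seeing the data) 20.2 and 16.3. Marker scores gave ratios of 0.88 and 0.98 with 1 member 2-fold lower, thinning 0.85 and 1.12, centring 1.21 and 1.39, and the myonucleus-like level subtracted 1.36 and 1.37. Without Ezh2 and Diaph3 the S ratio was 1.12.

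Fibroblast-like nuclei had S differences of 3.65 points (-0.507 to 7.88) and 0.55, mitotic ones of 2.02 points (-1.94 to 6.11) and 0.66 (thinned, 6.99 and 4.08 points, with intervals above 0), and 5 members 2-fold higher. A minimum of 1000 UMIs put the shares below 0, at -4.41 points (-7.58 to -1.19, wholly below 0) and -2.63 points (-5.68 to 0.487), and one of 3000 UMIs gave 8.39 points for S and a mitotic ratio of 0.61. Marker scores gave 8.04 points for S. The mitotic ratio was 0.86 without the top Scrublet scores (9 members higher, 1 lower), 0.73 with cell cycle genes kept and 0.76 thinned (11 higher). Ratios were 0.49 and 0.58 at resolution 1.6 (3 higher), 0.69 and 0.8 centred (9 higher), and 0.83 and 0.76 with the myonucleus-like level subtracted. No paired analysis was possible because each group has 1 library.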

Other observations

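Replication and mitosis genes also marked a part of the fibroblast-like and endothelial-like nuclei. Of fibroblast-like nuclei, 118 of 1712 (6.89%) in the library labelled AHRfl/fl and 84 of 709 (11.8%) in the library labelled AHRmKO were positive for both groups after thinning. The 42 other mitosis genes, which took no part in that sorting, were at 3037 and 3962 CPM in them. Fibroblast-like nuclei without a UMI of the 38 genes held them at 246 and 206 CPM. Of endothelial-like nuclei, 33 of 343 (9.62%) and 37 of 227 (16.3%) were positive for both, with the other mitosis genes at 3103 and 4146 CPM against 276 and 187 CPM. In fibroblast-like nuclei of the library labelled AHRfl/fl the positive nuclei were deeper (a median of 6937 against 4166 UMIs), and 28.0% of them were among the top Scrublet scores, against 15.2% of those without a UMI. In the library labelled AHRmKO these were 3602 against 3238 UMIs, and 10.7% against 1.48%. In endothelial-like nuclei the same medians were 5390 against 3934.5 UMIs and 6445 against 3667 UMIs, and the Scrublet shares 12.1% against 5.56% and 2.7% against 6.12%, in the libraries labelled AHRfl/fl and AHRmKO. The part of doublets was not tested.

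In erythroid-like nuclei the S group was at 2 of 6361 and 11 of 62628 UMIs, and no nucleus of 3 and 19 held 3 UMIs of it, which allows shares of up to 70.8% and 17.6% (exact binomial). For the mitotic group 0 of 3 and 1 of 19 (5.26%) did.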
